A study of Mus musculus with 8 samples.

Results

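The genes described here encode the enzymes that charge, carry and attach ubiquitin and are named Uba, Ube2, Ube3 or Ube4. The rule that picks them uses gene names and no measured value, although earlier results of these data were known when it was written: a transcript cluster of the exon array was taken where its single annotated gene symbol began with Uba and a digit, Ube1, Ube2 and a letter, Ube3 or Ube4. This gave 34 genes of the 14860 with a single-symbol cluster, namely 2 E1, 27 E2 and 5 E3 genes, and each had 1 cluster. A further 4 clusters carried a matching symbol together with another gene's symbol and were not used as genes; their log2 differences lay between -0.05 and 0.21 and none passed the test. Genes of these families without such a cluster, among them Uba1, were not analysed here.

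Ubiquitin is activated by an E1 enzyme, passed to the active cysteine of an E2 enzyme and attached to a substrate with the help of an E3 ligase. HECT ligases take the ubiquitin onto themselves first, whereas RING and U-box ligases let the E2 hand it over directly. In wasting skeletal muscle this cascade feeds proteins to the proteasome, and transcription factors of the FoxO family are known to drive several of its genes during fasting.

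The samples came from tibialis anterior, a fast muscle of the lower leg, of male mice aged 8 weeks. One group was fed ad libitum and the other was fasted for 24 h. Each array held RNA pooled from 3 mice, and the experiment was done 4 times with 1 fed and 1 fasted pool each, which gave 4 arrays per group. No strain, genetic change or agent is named in the labels for either group, and pooling hides the spread between single mice.

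Levels are log2 array signals, and a difference is the fasted minus the fed log2 level, given with the standard error of limma's paired fit. Array medians lay between 5.76 and 5.91, and the median standard error over all 16755 clusters was 0.12; the number of arrays limited the precision. A marker or listed gene is called measured here where it had a single-symbol cluster. Others, including any found only in clusters with several symbols, were left out. Of 10 markers of fast skeletal muscle, 8 were measured, all with mean log2 levels between 10.80 and 12.39, and their differences had a median of -0.05 with none past the test. Of 23 markers of satellite, endothelial, macrophage, adipocyte, fibroblast, Schwann and erythroid cells, 19 were measured; none passed in limma, and the median difference was 0.02. At an unadjusted p under 0.05, 3 of the 19 were higher and 2 lower, where 5.15% and 5.79% of all clusters were. These were the endothelial genes Kdr, at -0.48, and Pecam1, at 0.34, the fibroblast genes Col1a1, at -0.39, and Pdgfra, at 0.29, and the macrophage gene Cd68, at 0.27; their part in the results on the 34 genes was not tested. In such bulk samples, fewer cells of a type and less RNA per cell cannot be told apart.

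The comparison of fasted with fed muscle asked whether the genes of the ubiquitin charging and transfer enzymes changed with fasting. The U-box ligase gene Ube4a rose about 2-fold, its relative Ube4b had the next largest positive difference without passing the test, and no E1, E2 or HECT gene passed, with differences from -0.49 for the E2 gene Ube2n to 0.32 for the E2 gene Ube2b. In limma's test with Benjamini-Hochberg adjustment over all clusters, 1 of 34 genes passed and was higher, against a background of 0.818% of all clusters called, 0.531% of them higher and 0.286% lower. None passed as lower; without adjustment, 7 genes were at p under 0.05 in limma, against 10.9% of all clusters: 4 were higher, against 5.15%, and 3 lower, against 5.79%. The median difference was -0.06 over the 34 genes and -0.02 over all clusters. Of the 34 genes, 12 lay above 0 and 22 below, and of all 16755 clusters, 7648 lay above 0 and 9107 below.

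**Figure D1:**
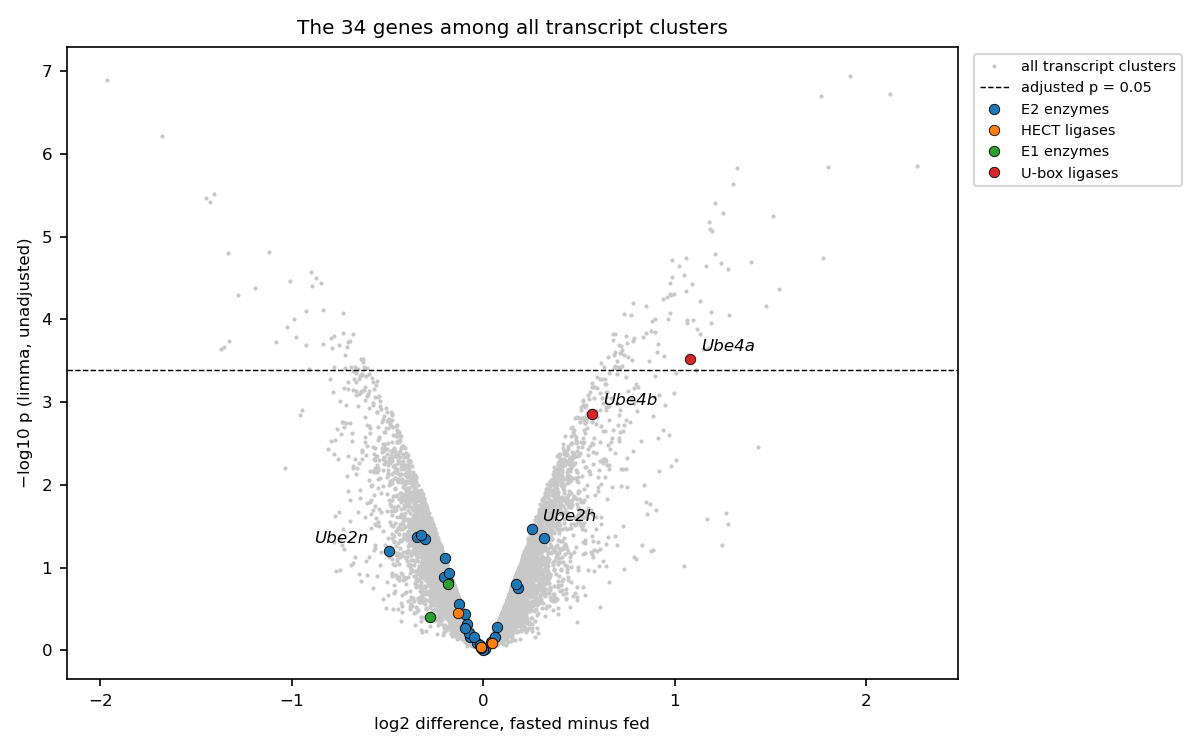
Difference between fasted and fed muscle (horizontal, log2) against the unadjusted p of limma's paired test (vertical, −log10) for all 16755 transcript clusters in grey and the 34 genes in colour by enzyme class. Ube4a, at 1.08, is the coloured point above the dashed line of adjusted p = 0.05, Ube4b, at 0.57, lies below it, and the E2, HECT and E1 genes lie between -0.49 and 0.32.

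The 34 genes were measured well enough to bound most changes. The 95% interval of the difference lay wholly within 1 log2 unit of 0, which is a 2-fold change, in 32 genes, and within 0.5 of 0 in 26. The exceptions to the first bound were Ube4a, whose interval ran from 0.67 to 1.49, and Ube2n, whose interval ran from -1.02 to 0.04. These intervals are not adjusted for the number of genes. Of all 16755 clusters, 16339 had an interval within 1 log2 unit of 0 and 11957 within 0.5. Such precision was thus not particular to the 34 genes.

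The U-box ligases are described first because they stood farthest from 0 on the higher side. Ube4a and Ube4b are the mammalian relatives of yeast Ufd2, which lengthens ubiquitin chains on substrates that already carry some ubiquitin and binds the segregase ATPase called Vcp in mammals. For Ube4a, transcript cluster 6995149, the fed arrays of experiments 1 to 4 read 5.89, 6.20, 6.37 and 6.54, and the fasted arrays read 7.64, 7.28, 7.11 and 7.28. Every fasted array thus lay above every fed array, and the fed array of experiment 1 was the lowest and the fasted array of experiment 1 the highest of its group. The fed arrays had a mean of 6.25 ± 0.28 and the fasted arrays one of 7.33 ± 0.22 (SD, 4 arrays each). This was a rise of 1.08 ± 0.18, or 2.12-fold, with an adjusted p of 0.0439 in limma. By p it ranked 116 among all clusters and by size of the rise 38. The rise was 1.75 in experiment 1, 1.08 in experiment 2 and 0.75 in experiments 3 and 4.

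Ube4b, cluster 6926941, read 7.09, 7.01, 7.33 and 7.40 in the fed arrays and 7.91, 7.65, 7.67 and 7.88 in the fasted arrays. Here too the groups did not overlap, and the fasted arrays of experiments 1 and 4 were the highest. The mean was 7.21 ± 0.19 in fed and 7.78 ± 0.14 in fasted muscle (SD, n = 4), a difference of 0.57 ± 0.12 with an adjusted p of 0.0949 in limma and a 95% interval from 0.30 to 0.84. It was higher in 4 of 4 experiments, by 0.83, 0.64, 0.34 and 0.47. Ube4a and Ube4b were the only 2 of the 34 genes whose groups did not overlap with fasted above fed, a pattern that 3.55% of all clusters showed. None of the 34 had all fasted arrays below all fed ones, which 3.22% of clusters did.

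The call of Ube4a rested on having all 4 experiments. It ended when any 1 was left out, with adjusted p of 0.0890, 0.157, 0.0550 and 0.0867 without experiments 1 to 4 and differences from 0.86 to 1.19, and with array medians set equal (adjusted p = 0.105). Over 13 alternative settings Ube4a passed in 7, with adjusted p from 0.00657 to 0.157, and Ube4b in 4, with adjusted p from 0.0405 to 0.343. Of the 7, the mean of a gene's rows left the values of Ube4a as they were, because it had 1 cluster.

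**Figure D2:**
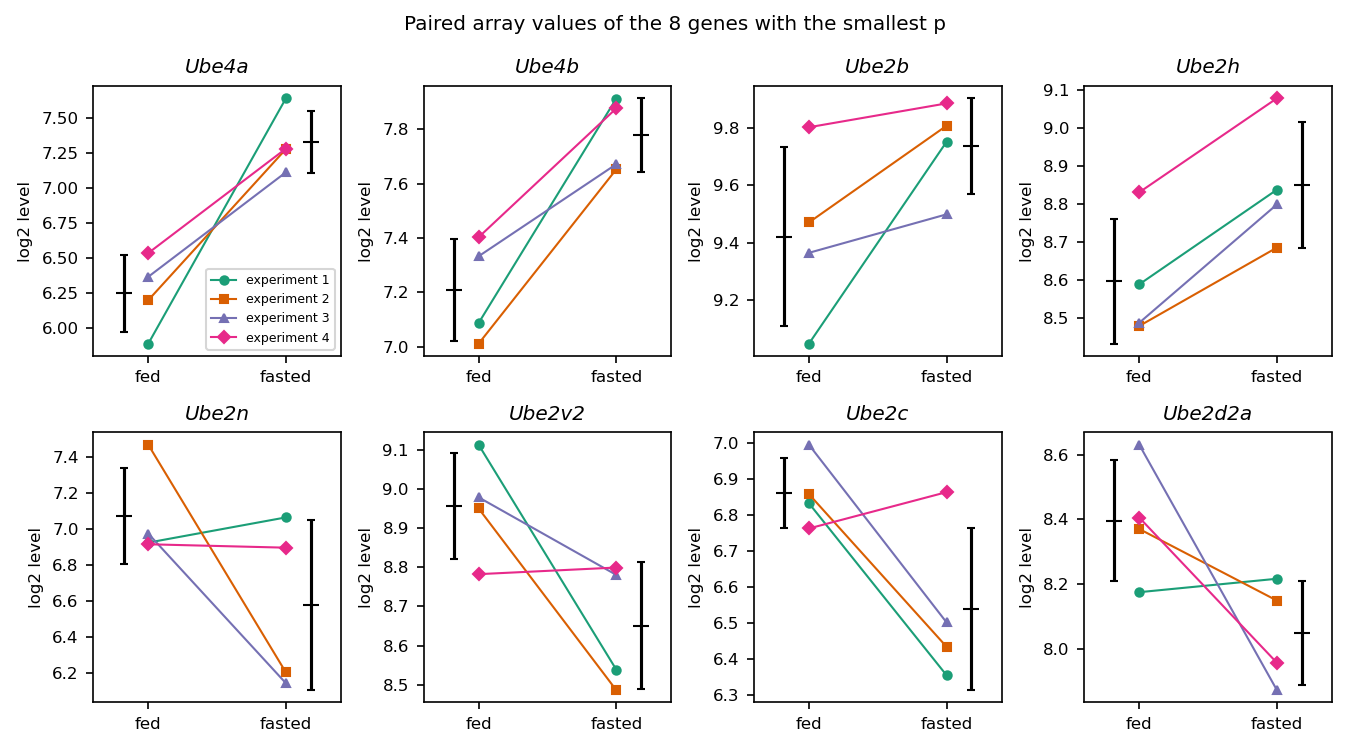
Log2 levels of the 8 genes with the smallest p in each fed and fasted array, joined within an experiment by coloured lines, with the group mean ± SD in black (n = 4 arrays per group) and a separate vertical range per gene. The lines of Ube4a and Ube4b rise without overlap of the groups, those of Ube2h are nearly parallel, and those of Ube2n, Ube2v2, Ube2c and Ube2d2a each include 1 experiment that goes up.

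The promoter windows of both U-box genes are printed because these 2 genes lay together on the higher side, and that of Ube2h because it held the only FoxO motif found. The sequences are the 250 bases before a RefSeq transcript start in GRCm38.p6, on the minus strand of chr9:44965601-44965850 for Ube4a, chr4:149426632-149426881 for Ube4b and chr6:30243804-30244053 for Ube2h. Capitals mark the matches to the motifs named after them.
Ube4a: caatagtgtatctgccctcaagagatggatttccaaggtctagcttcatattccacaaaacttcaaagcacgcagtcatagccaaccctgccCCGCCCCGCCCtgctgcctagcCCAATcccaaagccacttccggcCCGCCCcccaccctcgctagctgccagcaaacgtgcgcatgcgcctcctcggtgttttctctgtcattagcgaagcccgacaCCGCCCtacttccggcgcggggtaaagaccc
Ube4b: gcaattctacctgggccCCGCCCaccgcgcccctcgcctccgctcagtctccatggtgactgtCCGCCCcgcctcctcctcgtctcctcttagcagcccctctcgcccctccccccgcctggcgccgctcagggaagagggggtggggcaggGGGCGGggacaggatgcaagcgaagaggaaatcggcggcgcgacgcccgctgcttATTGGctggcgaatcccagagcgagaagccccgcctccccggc
Ube2h: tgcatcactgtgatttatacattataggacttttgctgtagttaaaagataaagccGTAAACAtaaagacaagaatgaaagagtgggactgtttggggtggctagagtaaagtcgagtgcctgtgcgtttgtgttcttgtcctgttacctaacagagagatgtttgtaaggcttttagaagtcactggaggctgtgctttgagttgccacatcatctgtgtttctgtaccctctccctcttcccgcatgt
The motifs searched on both strands were the FoxO element GTAAACA, the palindromic glucocorticoid response element, the GC box GGGCGG, the CCAAT box and the cAMP response element TGACGTCA. The Ube4a window held 4 GC boxes, 2 of which share a base, at -158, -153, -113 and -31 from the start, and a CCAAT box at -136. The Ube4b window held 3 GC boxes, at -233, -187 and -98, and a CCAAT box at -43. Neither held the FoxO letters or the glucocorticoid element. The FoxO match of Ube2h was at -194 in 1 of its 2 windows. Its other window, not printed, held GC boxes at -143 and -36 and the cAMP response element at -24.

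Of the 34 genes, 28 had a window in the RefSeq table, 36 windows in all. The GC box was in 28 of the 36, or 77.8%, against 48.2% of the 14898 windows of genes on the array and 32.7% of all 32851 windows. The CCAAT box was in 9 of the 36, or 25%, against 34.9% of windows of genes on the array and 33.8% of all. The FoxO element was in 1, or 2.78%, against 2.55% and 3.17%, the cAMP response element in 1, or 2.78%, against 2.00% and 1.55%, and the glucocorticoid element in none, against 0.295% and 0.387%. These matches describe letters in a short window.

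Both E1 genes had differences below 0 that did not pass. Uba6 encodes an E1 of ubiquitin, which also activates the ubiquitin-like protein FAT10. It read 5.28, 5.29, 5.48 and 5.38 in fed and 5.17, 5.33, 5.02 and 5.18 in fasted arrays, a difference of -0.18 ± 0.12 (adjusted p = 0.679 in limma). The groups overlapped through the fasted array of experiment 2. Uba3 encodes the catalytic subunit of the E1 for NEDD8, the ubiquitin-like protein that switches on cullin ligases. Its difference of -0.28 ± 0.31 had the largest standard error of the 34 genes, because it went from 0.67 in experiment 1 to -1.56 in experiment 3; without experiment 3 it was 0.15. The E2 dedicated to Uba6, encoded by Ube2z, was at -0.01 ± 0.12.

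The E2 genes for ubiquitin-like proteins did not pass. Ube2f, an E2 for NEDD8, read 7.17, 7.50, 7.33 and 7.34 in fed and 6.87, 7.32, 7.42 and 6.97 in fasted arrays, at -0.19 ± 0.12. Only the arrays of experiment 3 went up. Ube2l6, an E2 for the interferon-induced ISG15, was at 0.01 ± 0.16. Of 10 interferon response genes 3 were measured, with a median of 0.20 and none past the test. The log2 of their summed unlogged signals was 7.01 to 7.31 in fed and 7.18 to 7.42 in fasted arrays.

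Among the E2 genes of ubiquitin, differences ran from -0.49 for Ube2n to 0.32 for Ube2b. The 27 E2 genes had a median of -0.07, with 9 above 0 and 18 below, where 9107 of all 16755 clusters were below.

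The Rad6 homologues Ube2a and Ube2b encode near-identical E2 enzymes that work with the Ubr ligases of the N-degron pathway and with ligases of chromatin and DNA repair; Ube2b is the E2 long studied in wasting muscle of the rat. Ube2b read 9.05, 9.47, 9.36 and 9.80 in fed and 9.75, 9.81, 9.50 and 9.89 in fasted arrays. It was higher in 4 of 4 experiments, by 0.71, 0.34, 0.14 and 0.08, but the groups overlapped. Its difference of 0.32 ± 0.13 (adjusted p = 0.433 in limma) had a 95% interval from 0.01 to 0.62 and was 0.19 without experiment 1.

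Ube2a read 6.39, 6.61, 6.62 and 6.78 in fed and 6.71, 6.68, 6.20 and 6.43 in fasted arrays, at -0.09 ± 0.15 (adjusted p = 0.934). It went up in experiments 1 and 2 and down in experiments 3 and 4. The difference between Ube2a and Ube2b was not tested, and as close paralogs they can share probe signal.

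Ube2h encodes an E2 that works with the CTLH ligase complex and is abundant in maturing red cells. It read 8.59, 8.48, 8.49 and 8.83 in fed and 8.84, 8.69, 8.80 and 9.08 in fasted arrays, a difference of 0.25 ± 0.10 (adjusted p = 0.390 in limma). The groups overlapped, because the arrays of experiment 4 were the highest of both groups, but within experiments the difference was even, at 0.25, 0.21, 0.31 and 0.25. The erythroid marker measured, Alas2, was at 0.00 ± 0.12.

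In the Ube2d family, the broadly used E2 enzymes that serve many RING ligases, 4 of 5 genes lay below 0 and none passed. Ube2d2a read 8.18, 8.37, 8.63 and 8.41 in fed and 8.22, 8.15, 7.87 and 7.96 in fasted arrays, at -0.35 ± 0.14 (adjusted p = 0.431). It was lower in 3 of 4 experiments, most in experiment 3, by -0.76. Ube2d1 read 8.73, 8.98, 9.22 and 9.35 in fed and 8.77, 8.92, 8.81 and 8.99 in fasted arrays, at -0.20 ± 0.12 (adjusted p = 0.636). Its fasted arrays stayed within a narrow range while its fed arrays spread more widely. Ube2d3 was at -0.07, Ube2d2b at -0.07 and the little-studied Ube2dnl1 at 0.00; the last 2 had mean log2 levels of 4.69 and 4.06, in the lowest 25% of clusters, where a signal may be background. Members of this family are close paralogs and can share probe signal.

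The Ube2e family, nuclear relatives of Ube2d with an extended amino terminus, had 3 measured genes, all below 0 and none past the test. Ube2e2 read 6.97, 6.71, 6.90 and 6.60 in fed and 6.74, 6.53, 6.66 and 6.44 in fasted arrays. Ube2e3 read 8.22, 8.15, 8.22 and 7.90 in fed and 7.99, 7.96, 8.04 and 7.80 in fasted arrays. In both, each fasted array was below the fed array of its experiment, although the groups overlapped, and the differences were -0.20 ± 0.10 (adjusted p = 0.535) and -0.18 ± 0.10 (adjusted p = 0.614). Ube2e1 was at -0.08 ± 0.11.

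Ube2n, whose product builds the ubiquitin chains of signalling and DNA repair, and Ube2v2, an E2-like partner without an active cysteine that directs it, both lay below 0 without passing. Ube2n read 6.93, 7.47, 6.98 and 6.92 in fed and 7.07, 6.20, 6.14 and 6.90 in fasted arrays, at -0.49 ± 0.23 (adjusted p = 0.502). The lower values came from experiments 2 and 3, at -1.27 and -0.83, whereas experiments 1 and 4 were at 0.14 and -0.02. Ube2v2 read 9.11, 8.95, 8.98 and 8.78 in fed and 8.54, 8.49, 8.78 and 8.80 in fasted arrays, at -0.31 ± 0.13 (adjusted p = 0.438). Its lower values came from experiments 1, 2 and 3, at -0.57, -0.46 and -0.20.

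The E2 genes of chain building and of the endoplasmic reticulum membrane other than Ube2h were near 0. Ube2j1, the membrane-bound E2 of endoplasmic reticulum-associated degradation, was at 0.18 ± 0.12, and Ube2g1 at 0.04 ± 0.15. Ube2k and Ube2r2, which extend chains that target proteins to the proteasome, were at -0.10 ± 0.10 and -0.13 ± 0.11. Of these, Ube2k was lower in 4 of 4 experiments, with differences from -0.03 to -0.21.

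Ube2c, the E2 of the anaphase-promoting complex, read 6.83, 6.86, 6.996 and 6.76 in fed and 6.35, 6.43, 6.50 and 6.86 in fasted arrays, at -0.32 ± 0.13 (adjusted p = 0.415). It was lower in experiments 1 to 3 and higher in experiment 4. Of 10 markers of dividing cells 9 were measured, 7 below 0 and 2 above, with none past the test; Aurka was at -0.43 ± 0.11 and Mki67 at 0.25 ± 0.11. The log2 of the summed unlogged signals of these markers was 8.18 to 8.30 in fed and 8.05 to 8.22 in fasted arrays. Their part in the value of Ube2c was not tested. Ube2t, an E2 of Fanconi anaemia DNA repair, was at -0.03 ± 0.13 with a mean log2 level of 4.73, also in the lowest 25%.

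The other E2 genes lay between -0.05 and 0.17. Ube2o, a large enzyme that acts as E2 and E3 in one, was higher in 4 of 4 experiments at 0.17 ± 0.11 (adjusted p = 0.685). Ube2l3, which serves HECT and RING-between-RING ligases, was at -0.05 ± 0.11, Ube2q1 at 0.07, Ube2q2 at 0.06 and Ube2w, which tags protein amino termini, at -0.02. Over all 34 genes, 5 were higher in 4 of 4 experiments (Ube4a, Ube4b, Ube2b, Ube2h and Ube2o) and 3 were lower (Ube2e2, Ube2e3 and Ube2k), where 8.61% and 10.1% of all clusters were.

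**Figure D3:**
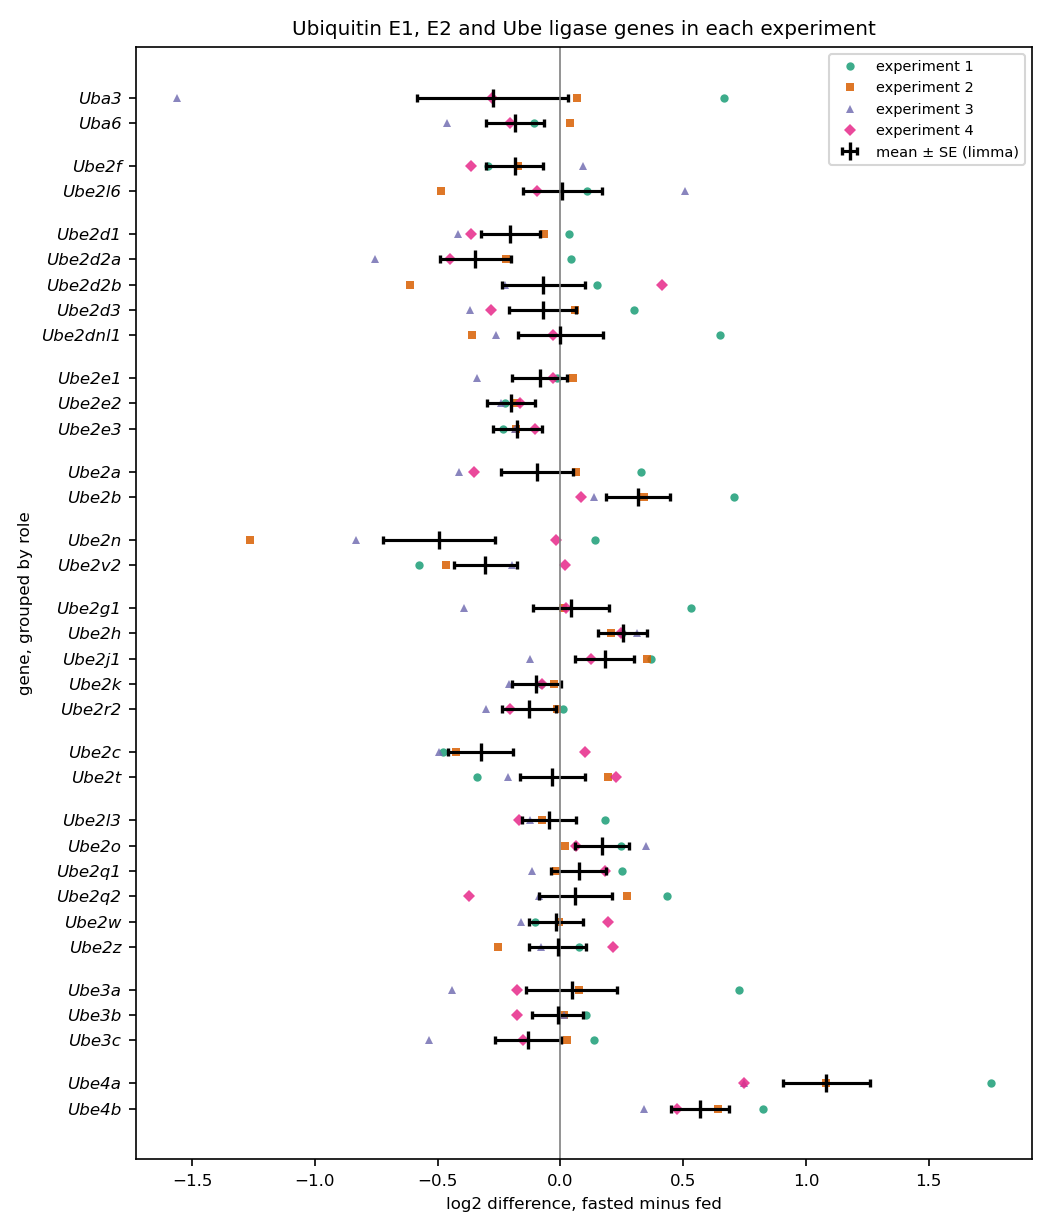
Log2 difference of fasted minus fed muscle for each of the 34 genes, grouped by role, in each of the 4 experiments (coloured symbols) and as the mean ± SE of limma's paired fit (black). Ube4a and Ube4b lie to the right of 0 in every experiment, while Uba3, Ube3a, Ube2g1 and several others have experiment 1 on the right and experiment 3 on the left.

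The HECT ligase genes were centred on 0. Ube3a, the ligase lost in Angelman syndrome, read 7.52, 8.06, 8.07 and 8.07 in fed and 8.25, 8.14, 7.63 and 7.90 in fasted arrays, at 0.05 ± 0.18 (adjusted p = 0.981). The fed array of experiment 1 stood below the other 3 fed arrays, and without experiment 1 the difference was -0.18. Ube3b was at -0.01 ± 0.10 and Ube3c, a ligase associated with the proteasome, at -0.13 ± 0.13.

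Many of the 34 genes shared the pattern of Ube3a over experiments, which was seen after the values were examined. The fed array of experiment 1 was the lowest fed array for 18 of 34 genes, or 52.9%, against 23.5% of all clusters. The fasted array of experiment 3 was the lowest fasted array for 15, or 44.1%, against 25.8%. Both held for 12 genes, or 35.3%, against 12.4%. Accordingly the median difference over the 34 genes was 0.14 in experiment 1, 0.0033 in experiment 2, -0.21 in experiment 3 and -0.05 in experiment 4, whereas over all clusters it was -0.10, -0.04, 0.08 and -0.00028. In experiments 1, 2 and 3 the sign of the median over the 34 genes was thus opposite to that over all clusters, though in experiment 2 both were near 0. limma's array weights were lowest in experiments 1 and 3, at 0.631 and 0.551 against 1.39 and 2.07 in experiments 2 and 4. With experiments 1 and 3 both left out, a setting added for this pattern, none of the 34 genes and 5 of all clusters passed; Ube4a was then at 0.91 (adjusted p = 0.142) and Ube4b at 0.56. The pattern was not particular to the 34 genes. Of the measured genes of endoplasmic reticulum-associated degradation described below, Ufd1, Rnf5, Rnf139, Marchf6, Derl1 and Sel1l had both lowest arrays. Nploc4, Syvn1, Derl2 and Aup1 did not. Of the measured E1 and E2 genes with other names, Ufc1, Aktip, Sae1 and Nae1 had both, and Birc6, Uevld and Atg10 did not. The cause of the pattern was not tested.

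**Figure D4:**
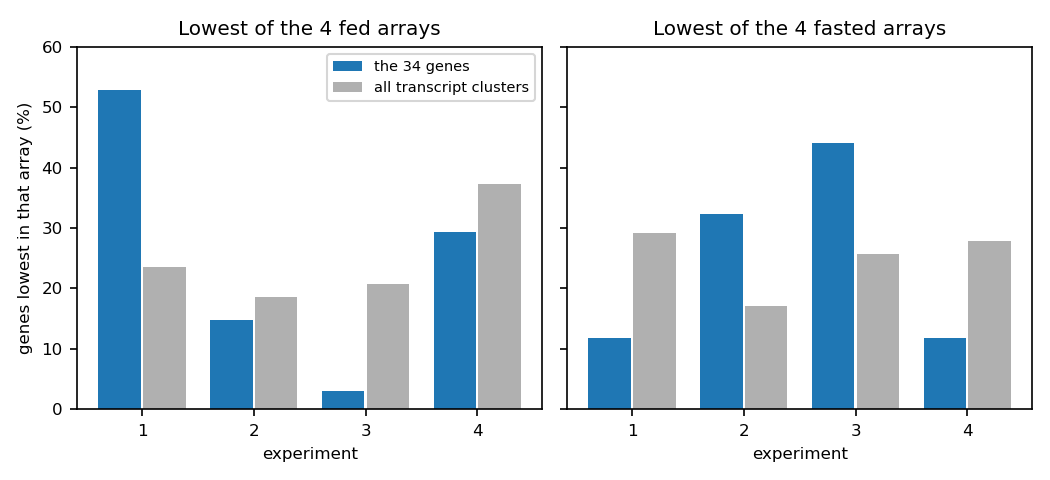
Share of the 34 genes (blue) and of all 16755 transcript clusters (grey) whose lowest fed array (left) or lowest fasted array (right) came from each experiment, in percent. The fed array of experiment 1 was lowest for 52.9% of the 34 genes and the fasted array of experiment 3 for 44.1%, against 23.5% and 25.8% of all clusters.

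The same fit was read for ubiquitin pathway genes outside the name rule. Of 71 genes in 5 lists, 48 were measured; 1 rose and none fell in limma, against 0.818% of all clusters called, and the median difference was -0.0025. At an unadjusted p under 0.05, 4 were higher and 2 lower, against 10.9% of all clusters in either direction. The gene that rose was Nploc4, in the list of endoplasmic reticulum-associated degradation; with Ufd1 its product forms the adaptor that brings ubiquitylated proteins to Vcp. Nploc4 read 6.82, 6.99, 6.82 and 7.22 in fed and 7.77, 7.50, 7.60 and 7.85 in fasted arrays, with no overlap. It was 1.65-fold higher (log2 0.72 ± 0.11, adjusted p = 0.0403 in limma), and its call ended without any 1 experiment, with adjusted p from 0.0844 to 0.154, and after median centring (0.0760).

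Ufd1 read 8.42, 8.66, 8.66 and 8.68 in fed and 9.19, 8.95, 8.78 and 8.93 in fasted arrays. Its groups did not overlap either, with a difference of 0.36 ± 0.13 that did not pass (adjusted p = 0.354 in limma). Of the 48 measured pathway genes, 4 had all fasted arrays above all fed ones, where 3.55% of all clusters did. They were Nploc4, Ufd1, Birc6 and, in this list, Syvn1, whose difference was 0.15 ± 0.10 (adjusted p = 0.733 in limma). Of the 10 measured genes of this list, 6 lay above 0, with a median of 0.04; the third with the smallest p, the membrane ligase gene Rnf5, was at -0.29 ± 0.17. Vcp was not analysed here.

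None of the other 4 lists held a gene past the test. Of 9 ligases that work with Ube2a and Ube2b, 6 were measured, with a median of 0.15; Ubr2 was at 0.45 ± 0.15 (adjusted p = 0.306), Ubr3 at 0.27 ± 0.13 and Rnf40 at 0.14 ± 0.10. Of 12 E1 and E2 genes with other names, 7 were measured, with a median of -0.09; the giant E2 and E3 hybrid Birc6 was at 0.41 ± 0.12 with no overlap of the groups (adjusted p = 0.236), the E2 of UFM1, Ufc1, at -0.42 ± 0.16, and Aktip at -0.16 ± 0.11. Of 26 other HECT and U-box ligases, 22 were measured, with a median of 0.02; the U-box gene Stub1, which encodes the chaperone-linked ligase CHIP, was lower in 4 of 4 experiments at -0.31 ± 0.10 (adjusted p = 0.292), Herc4 was at 0.25 ± 0.13 and Hectd3 at 0.19 ± 0.11. Of 12 precursors of ubiquitin and ubiquitin-like proteins, 3 were measured, namely Nedd8 at -0.15 ± 0.11, Ufm1 at -0.10 ± 0.13 and Ubl5 at -0.07 ± 0.11.

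**Figure D5:**
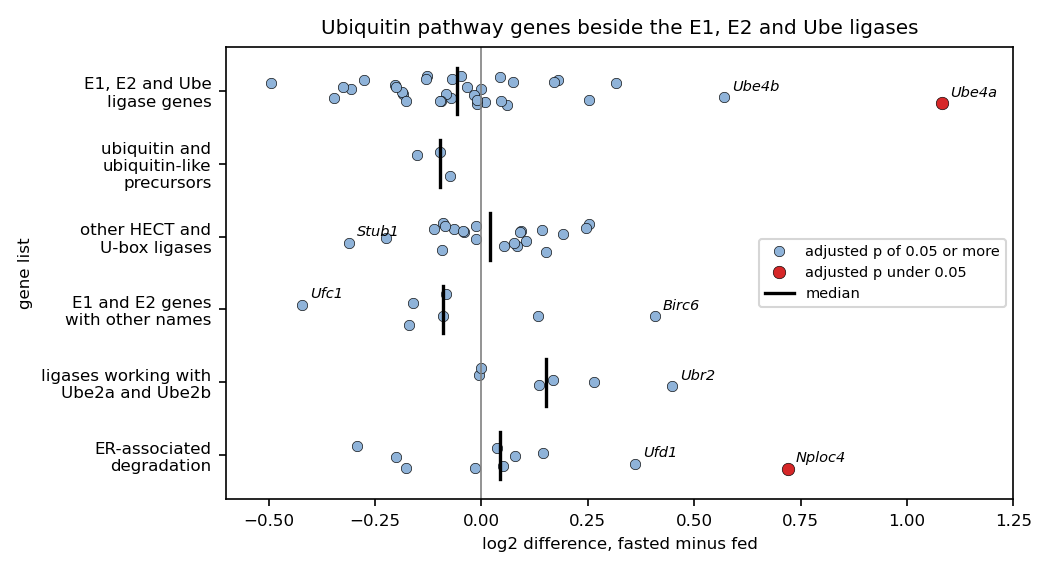
Log2 difference of fasted minus fed muscle for each measured gene of the 34 and of 5 other ubiquitin pathway lists, with list medians as black bars and genes past an adjusted p of 0.05 in red. Ube4a, at 1.08, and Nploc4, at 0.72, are the genes past the test, and the list medians lie between -0.10 and 0.15.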

How the data were processed

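The authors deposited log2 values per transcript cluster made with RMA (background correction, normalisation across arrays, one summary per probe set), per the submitters' processing notes, which give no version. That the scale is log2 was inferred from its range, which ended at 13.30. The notes also name hg18 without a role, so coordinates printed are those of RefSeq's GRCm38.p6 promoter table and not of probes. No call of detection was used, so a low level may be background. RNA was amplified before labelling, per the labels' protocols, which can distort proportions of transcripts.

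The table held 16755 clusters, 14996 with 1 platform symbol, 1019 with several and 740 with none. All 34 genes matched RefSeq by Entrez number under the same symbol. Fasted minus fed was fitted over all clusters with limma 3.58.1 in R 4.3.3 (lmFit, eBayes without trend) with experiment as a block, adjusted by Benjamini-Hochberg, threshold 0.05; 3 residual and 4.84 prior degrees of freedom. The pairing comes from the sample titles, which number the experiments, and the series description, which sets fasted levels relative to nonfasting ones. Deviations of paired arrays from their group means correlated at -0.18, 0.05, -0.14 and 0.44 in experiments 1 to 4. The p-values rest on the spread of the fasted minus fed differences between experiments, which limma moderates with a prior taken from all clusters. They do not rest on the SDs of the groups. The genes and lists were chosen with earlier results of these data known.

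Every array's value is given for genes past the test, the 12 of smallest p, and Uba6, Ube2a, Ube2b, Ube2n, Ube3a, Ube4a and Ube4b; array values of Ufd1 were added after they were seen. From each other pathway list, genes past the test and up to 3 of smallest p are named, with array values for Nploc4. Syvn1 is named as well because its groups did not overlap. Marker genes and Alas2 were chosen after their values were seen. Alternatives were the fit without the block, with a random block, without each experiment, median centring, quantile normalization, the lowest 25% of clusters left out, a trended robust prior, array weights and the mean of a gene's rows.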

Additional observations from a re-analysis of the deposited data

Results flagged for a closer look

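Within the 4 arrays of a group, 5 of 68 sets of values (34 genes, fed and fasted) had an array farther from the others than Dixon's 95% limit; chance gives about 1 in 20. The fed array of experiment 1 was low for Ube3a, at 7.52 against 8.06 to 8.07. The fed array of experiment 2 was high for Ube2n, at 7.47 against 6.92 to 6.98. The fed array of experiment 4 was high for Ube3b, at 7.33 against 6.71 to 6.76. The fasted array of experiment 3 was low for Ube3c, at 6.59 against 6.96 to 7.04, and that of experiment 4 was high for Ube2r2, at 9.33 against 9.16 to 9.19. The causes were not tested.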

How the results depend on the processing

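Over 13 alternative settings, Ube4a and Ube4b kept a positive difference in each, and no gene passed as lower. A gene's difference cannot change in the fits without the block, with a random block or with a trended robust prior. Nor can it change without the lowest 25% of clusters or with the mean of a gene's rows. Leaving out experiments could not turn Ube4a or Ube4b negative, as both were higher in all 4. Their sign was therefore fixed in advance under these settings. The count of genes past the test, all higher, was 1 with all 4 experiments and in the fits without the replicate block, with a trended robust prior and with the mean of a gene's rows. It was 2 with a random replicate block, after quantile normalization, without the lowest 25% of clusters and with array weights, Ube4b being the second. It was 0 without any 1 experiment, 0 after median centring and 0 without experiments 1 and 3 together. The count of all clusters, 137, became 185 without the replicate block, 229 with it as random, 16 to 94 without 1 experiment, 45 after median centring, 240 without the lowest 25%, 216 with a trended robust prior, 265 with array weights and 5 without experiments 1 and 3. The count of other pathway genes, 1, was 0 without any 1 experiment, 0 after median centring and 0 without experiments 1 and 3. Leaving out experiments leaves fewer arrays; the cause of the other shifts was not tested.

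The sign changed in at least 1 setting for 15 of 34 genes, all with differences of at most 0.28 and none past the test, and never for the other 19. Without 1 experiment, these ran from -0.59 to 0.15 for Uba3, -0.16 to 0.17 for Ube2l6, -0.23 to 0.11 for Ube2d2b, -0.20 to 0.026 for Ube2d3, -0.22 to 0.12 for Ube2dnl1, -0.13 to 0.0017 for Ube2e1, -0.23 to 0.013 for Ube2a, -0.12 to 0.19 for Ube2g1, -0.12 to 0.069 for Ube2t, -0.063 to 0.21 for Ube2q2, -0.090 to 0.029 for Ube2w, -0.086 to 0.070 for Ube2z, -0.18 to 0.21 for Ube3a, -0.050 to 0.044 for Ube3b and -0.22 to 0.0040 for Ube3c. With array weights the values were Ube2l6 at -0.11, Ube2dnl1 at -0.063, Ube2t at 0.088, Ube2q2 at -0.037, Ube2w at 0.053, Ube2z at 0.021 and Ube3a at -0.010. Without experiments 1 and 3 they were Ube2l6 at -0.29, Ube2dnl1 at -0.19, Ube2e1 at 0.0091, Ube2t at 0.21, Ube2q2 at -0.051, Ube2w at 0.095 and Ube3a at -0.051. After median centring they were Ube2z at 0.0051 and Ube3b at 0.0050, and after quantile normalization Ube3b was at 0.0019. The median difference over the 34 genes was -0.13 to 0.01 without 1 experiment. Ube2d2b, Ube2dnl1 and Ube2t had no value without the lowest 25% of clusters.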
